A study of Mus musculus with 6 samples.

Results

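Of the 55681 non-control probes on the array, 16194 are named not after a gene or transcript but after a stretch of the mouse genome, written as chromosome, start and end in build mm9. These interval probes were taken by that name alone. They cover 3543 intervals on 20 chromosomes, between 62 and 7128487 bases long with a median of 7304, and these merge into 2226 loci where intervals overlap. Most names end in F or R, read here as the forward and the reverse strand because the files do not define the letters. The forward strand had 8171 probes, the reverse strand 8010, and 13 probes on 3 intervals had neither letter. A name, that is an interval with its strand, held between 1 and 10 probes with a median of 3, so probes of 1 name share a target and are not replicates. The working description of these probes as intergenic and noncoding could not be checked: gene positions in mm9 and probe sequences were not used here, so the nearest genes, and matches of a probe elsewhere in the genome, were not analysed here.

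Long intergenic noncoding RNAs are transcribed from their own promoters between protein-coding genes, are often spliced and polyadenylated, and are as a rule less abundant and more restricted to particular cell types than messenger RNAs. In embryonic stem cells, some of them are bound at their promoters by the factors of the pluripotency network, and depletion of some has been reported to disturb the undifferentiated state. Many wide intervals were first outlined by marks of active chromatin rather than by cloned transcripts, so a single interval can hold transcribed and silent stretches on either strand.

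The RNA came from 6 stable lines of ZHBTc4, a mouse embryonic stem cell line whose endogenous Pou5f1 alleles are disrupted and whose Oct4 transgene is silenced by tetracycline. All lines were kept with tetracycline (2 µg/mL) and selected with puromycin (1 µg/mL from day 2 after electroporation), and colonies were picked at day 9. A pCAG-IP plasmid supplied the rescuing factor. It was mouse Oct4 in mOct4 clones 1 and 2, the coelacanth's POU5F1 in LcPOU5F1 clones 4 and 5, and its POU5F3 in LcPOU5F3 clones 1 and 2. Each line is 1 separately picked clone on 1 array, so each group has n = 2, and the study asked how far either coelacanth protein can replace Oct4. A level below is the log2 processed signal minus the 75th percentile of its array, and a difference between groups is given with its standard error (SE).

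The lines were checked by their markers. The stem cell genes Nanog and Esrrb were well above background on all 6 arrays, with Nanog levels of 4.86 and 4.85 in mOct4, 4.57 and 4.55 in LcPOU5F1, and 3.39 and 2.34 in LcPOU5F3. Against mOct4 the LcPOU5F3 clones had less Nanog (-1.99 ± 0.36, limma adjusted p = 0.031) and Esrrb (-2.43 ± 0.40, adjusted p = 0.025). All 6 listed stem cell genes (also Sox2, Zfp42, Fbxo15 and Tdgf1) were lower by the test. Of 6 trophectoderm markers, Cdx2 (3.87 ± 0.76, adjusted p = 0.037), Krt8 (5.87 ± 0.20, adjusted p = 0.0041), Krt18 and Gata3 were higher, Eomes was lower (-1.97 ± 0.38, adjusted p = 0.035) and Elf5 was not detected on both arrays of any group. The other lists had Dab2, Thy1 and Tagln higher and Tubb3 lower. No gene of these lists passed the test for LcPOU5F1 against mOct4, though some differences were large. Cdx2 (-2.89 ± 0.76), Eomes (-2.51 ± 0.38), Thy1 (-1.90 ± 0.22) and Gata3 (-1.75 ± 0.40) were lower in LcPOU5F1. Dab2 (1.73 ± 0.47) and Nes (1.58 ± 0.34) were higher there (limma adjusted p from 0.17 to 0.30). The trophectoderm markers Krt8 (0.76 ± 0.20) and Krt18 (0.14 ± 0.31) were not lower in LcPOU5F1 (limma adjusted p = 0.28 and 0.86). The Pou5f1 probe was detected in both mOct4 clones (-1.58 and -1.32) and on none of the other arrays. These marker changes move with every LcPOU5F3 result below, and their part in the interval results was not tested. In such bulk RNA, fewer cells of a type and less RNA per cell cannot be told apart.

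Interval probes were dimmer than the rest of the array. In the mOct4 clones 42.9% and 43.3% of them were well above background, against 63.5% and 63.8% of the other probes. Shares were lower in LcPOU5F1 clones 4 and 5 (31.8% and 25.9%) and in LcPOU5F3 clones 1 and 2 (24.2% and 36%), where 51% to 60.5% of the other probes were detected. The arrays also differ in how faint a probe they register: the lowest level flagged as well above background was -3.63 and -3.47 in mOct4, -2.84 and -2.27 in LcPOU5F1, and -2.25 and -3.69 in LcPOU5F3. The 3 arrays with the lowest shares also had the 3 highest limits, and the part of the limits in the shares was not tested. No interval probe was saturated or marked as an outlier.

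Testing was limited to probes detected, that is flagged well above background, in both clones of 1 group or more. That kept 6412 interval probes, which lie in 2471 intervals and 1685 loci, and 24532 other probes. Of the kept interval probes, 3284 (51.2%) were detected on all 6 arrays and 2081 (32.5%) passed through the mOct4 group alone, against 14.3% of the other kept probes. Among 1067 intervals with probes to both strands, 645 (60.4%) had a kept probe on each strand, 340 (31.9%) on 1 strand and 82 (7.69%) on neither. Replicate clones were close in mOct4 and LcPOU5F1, with a median absolute difference of 0.25 between clones in each, and further apart in LcPOU5F3 (0.64). LcPOU5F3 clone 1 gave the higher level for 78.4% of kept interval probes.

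The comparison of LcPOU5F3 with mOct4 asks which intervals change when the coelacanth paralog stands in for Oct4. It called 461 of 6412 interval probes (7.19%) at a limma adjusted p under 0.05, where 12.2% of all 30944 kept probes were called, so the share among interval probes was below that of the array. Of these, 78 were higher in LcPOU5F3 and 383 were lower, or 1.22% and 5.97% of the kept interval probes, beside 6.05% and 6.15% of all kept probes. Thus 83.1% of called interval probes were lower, against 50.4% of all called probes. The 2081 probes kept through mOct4 alone could hardly show a rise, and they gave 166 of the lower calls and 1 of the higher. Among the 3284 detected on every array, 54 were higher and 125 lower (69.8% lower), while the other probes detected on every array had 1373 higher and 947 lower (40.8% lower).

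These calls rest on small groups. Without mOct4 clone 1, or without mOct4 clone 2, the same fit called 0 interval probes (908 and 677 at an unadjusted p under 0.05). Leaving out either LcPOU5F1 clone left 163, of which 141 (86.5%) were lower, beside 4.71% of all kept probes, 37.6% of them lower. Without LcPOU5F3 clone 1 there were 1151 calls, 1002 of them lower (87.1%), beside 23.9% of all kept probes, 58.4% of them lower. Without LcPOU5F3 clone 2 there were 848, split into 414 higher and 434 lower (51.2%), beside 14.3% of all kept probes, 45.2% of them lower. The lower share thus differed with the LcPOU5F3 clone left out. The median level over kept interval probes was -2.54 in clone 2 and -1.80 in clone 1. The lowest level flagged as well above background was -3.69 in clone 2 and -2.25 in clone 1. The part of either in the lower share was not tested.

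For 192 of the 383 lower probes (50.1%) neither LcPOU5F3 array was well above background, so only a lower bound on their change can be given (above 1 for 162 of them), computed as the brighter group's mean over the detection limit of the dimmer arrays. Among the 125 lower probes measured on both LcPOU5F3 arrays the median fall was 2.42-fold. The 62 higher probes measured on both mOct4 arrays had a median rise of 3.04-fold. The calls fell on 299 names in 245 loci: 53 names had higher probes, 247 had lower ones and 1 had both. Where a name had a called probe, 92.7% of its other kept probes differed in the same direction and 49.2% were called too. Of all pairs of probes within a name, 67.0% shared a sign. These sign shares are not alike. The former starts from called probes, picked for their differences, and counts a pair of called probes from each side. Chromosome 10 had the highest called share (14.0% of its kept interval probes) and chromosome 12 the lowest (3.34%).

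The 8 largest rises under the naming rule lay in 6 places. The single probe of chr6:34548561-34612216, forward strand, had levels of -2.80 and -2.79 in mOct4, -2.25 and -2.41 in LcPOU5F1, and 0.61 and 2.42 in LcPOU5F3. Its rise was the largest among the called interval probes, at 4.31 ± 0.58 or 19.8-fold (adjusted p = 0.018). A probe of chrX:50407969-50410370, reverse strand, was not well above background in mOct4 or LcPOU5F1 and had levels of -1.38 and -2.13 in LcPOU5F3. That is at least 3.46-fold higher than in mOct4 (adjusted p = 0.012). All 3 probes of this 2402-base interval rose, and for each of the 3 no array of the other groups was well above background. These probes thus passed the filter through LcPOU5F3 alone and could hardly show a fall. The probe of chr5:143200557-143204033, reverse strand, went from -2.07 and -1.88 in mOct4 to 1.12 and 1.43 in LcPOU5F3, a 9.54-fold rise (3.25 ± 0.28, adjusted p = 0.0097). LcPOU5F1 lay at -1.47 and -0.79, nearer to mOct4.

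Around chr8:67542714-67561694 the rise appeared on both strands. On the forward strand 4 of 5 kept probes rose, by 2.54 to 3.09, and the fifth did not pass (-0.21 ± 0.58). The brightest of the 4 had levels of -0.55 and -0.82 in mOct4, 0.60 and 0.00 in LcPOU5F1, and 1.58 and 3.21 in LcPOU5F3. Reverse-strand probes of the overlapping intervals chr8:67552315-67561235 and chr8:67550064-67560987 rose by 3.42 ± 0.58 and 3.25 ± 0.56 (adjusted p = 0.027 and 0.029). The former went from 1.54 and 1.17 in mOct4 to 3.98 and 5.56 in LcPOU5F3, with LcPOU5F1 at 2.80 and 1.98. At the 6 called probes the mean of LcPOU5F1 lay between those of the other groups, and neither contrast with LcPOU5F1 passed the test.

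The other large rises rest on 1 probe of a name. For chr3:95502970-95503399, reverse strand, the 1 kept probe of 3 rose by 3.22 ± 0.51 (adjusted p = 0.024), from -3.35 and -3.75 in mOct4 to -0.81 and 0.15. For chrX:90997595-91009570, reverse strand, 1 probe rose by 3.32 ± 0.38 (adjusted p = 0.014), but the other 8 kept probes differed by only -0.32 to 0.55 and none was called. Each rising probe was well above background on 1 of the mOct4 arrays. It passed the filter through LcPOU5F3 alone, so it could hardly show a fall.

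The 8 falls named by the size of the fitted difference all ended below detection on both LcPOU5F3 arrays, so their true order is not known and only bounds are given. The largest fall measured on both LcPOU5F3 arrays was 16.3-fold, at chr13:98267049-98267604, described below. At chr4:146017200-146029700, forward strand, the leading probe had levels of 0.36 and 0.50 in mOct4, 0.45 and -0.96 in LcPOU5F1, and -4.43 and -5.96 in LcPOU5F3, at least 10.6-fold lower in LcPOU5F3 (adjusted p = 0.014). One probe of chr5:105072936-105074001, forward strand, lay at -0.27 and 0.06 in LcPOU5F1 and at -0.27 and -0.04 in mOct4 and fell at least 7.04-fold in LcPOU5F3 (-4.50 and -6.02, adjusted p = 0.011). Both probes of chr15:102100964-102104552, forward strand, fell, the brighter from -0.56 and -1.12 to -4.47 and -5.67, at least 4.38-fold (adjusted p = 0.012). All 3 probes of chr10:69844350-69844784, forward strand, fell, the leading one from -1.09 and -0.29 to -4.37 and -5.46, at least 4.87-fold (adjusted p = 0.015). At these 4 leading probes LcPOU5F1 differed from mOct4 by -0.69 to 0.05 (adjusted p from 0.66 to 0.97).

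At the other 4 of these falls the LcPOU5F1 levels also lay below those of mOct4. A probe of chr8:90048940-90049461, forward strand, fell at least 16.7-fold, from 0.97 and 1.32 in mOct4 to -2.14 and -4.03 in LcPOU5F3, with -0.39 and 0.14 in LcPOU5F1 (adjusted p = 0.022). One of chr17:24157887-24158104, reverse strand, fell at least 4.44-fold, from -0.30 and -1.34 to -4.32 and -5.78, with -2.81 and -2.10 in LcPOU5F1 (adjusted p = 0.020). At chr16:3111550-3130500, reverse strand, the leading probe fell at least 11.5-fold, from 0.66 and 0.45 to -3.88 and -3.74, with -2.21 and -0.79 in LcPOU5F1 (adjusted p = 0.013). At chr18:3003075-3016150, forward strand, it fell at least 6.81-fold, from -0.10 and -0.30 to -4.32 and -5.79, with -2.84 and -1.29 in LcPOU5F1 (adjusted p = 0.019). For none of these 4 probes did LcPOU5F1 pass the test against mOct4 (adjusted p from 0.25 to 0.46). The probes of chr17:24157887-24158104 and chr18:3003075-3016150 passed the filter through mOct4 alone, so they could hardly show a rise.

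Because most names have several probes, intervals can be read by how many of their probes move together. After merging overlapping intervals of the same strand, 46 stretches held at least 3 called probes; 39 had only lower calls, 6 only higher and 1 both. Together they held 199 of the 461 calls. All kept probes were called in 13 of them. Such stretches were chosen by their calls, so these counts are a description. The opposite strand had kept probes in 35 stretches, with 118 probes in all, of which 14 were called. Over the array, 461 of 6412 kept interval probes (7.19%) and 12.2% of all kept probes were called. The opposite strand was thus not short of calls. Against mOct4, the median LcPOU5F1 difference was within 0.5 of 0 in 31 of the 39 lower stretches. Without either mOct4 clone none of these calls held.

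Among the lower stretches, chr8:119090566-119097735, reverse strand, had all 8 kept probes called, with falls of 2.04 to 2.26. Its brightest probe had levels of 4.84 and 4.89 in mOct4, 4.59 and 4.41 in LcPOU5F1, and 2.82 and 2.54 in LcPOU5F3, a 4.55-fold fall (-2.19 ± 0.18, adjusted p = 0.0094). All 8 were also lower in LcPOU5F3 than in LcPOU5F1, and none of the 3 kept probes on the opposite strand was called. At chr17:26911032-26917047, forward strand, 12 of 13 kept probes fell, those of the inner interval chr17:26911397-26917047 by 0.85 to 1.13. The brightest there went from 3.06 and 2.80 in mOct4 to 2.67 and 2.52 in LcPOU5F1 and 2.12 and 1.84 in LcPOU5F3 (-0.95 ± 0.20, adjusted p = 0.042). LcPOU5F1 lay between the other groups at all 10 probes of that interval and differed from neither by the test.

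A larger fall came at chr13:98221098-98480773, forward strand, where 7 of 10 kept probes in 4 nested intervals were lower. The 3 probes of the 556-base interval chr13:98267049-98267604 were the bright ones. The highest had levels of 4.18 and 4.07 in mOct4, 4.30 and 3.98 in LcPOU5F1, and 1.25 and -1.06 in LcPOU5F3, a 16.3-fold fall (-4.02 ± 0.73, adjusted p = 0.032). All 3 differed between LcPOU5F1 and mOct4 by 0.02 or less. The LcPOU5F3 clones were far apart at this probe, yet both lay below every other array. Within the neighbouring interval chr13:98270713-98272269, 2 of 3 probes were called, and the leading one was at least 4.61-fold lower in LcPOU5F3 (adjusted p = 0.025).

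At chr6:52046805-52072744 all called probes were on the forward strand. There 5 of 6 kept probes fell, the 3 detected on an LcPOU5F3 array by 2.41 to 3.59 and the others by at least 1.1-fold and 2.74-fold. The probe with the smallest adjusted p among all interval probes in this comparison lies here: -1.48 and -1.55 in mOct4, -1.52 and -1.59 in LcPOU5F1, and -4.47 and -4.45 in LcPOU5F3, at least 2.74-fold lower (adjusted p = 0.0046). Another went from 0.91 and 0.71 in mOct4 and 1.17 and 1.01 in LcPOU5F1 to -1.67 and -1.53, all measured, a 5.31-fold fall (-2.41 ± 0.18, adjusted p = 0.0079). None of the 7 kept reverse-strand probes was called, with differences of -0.83 to 0.02, and for 5 of them neither LcPOU5F3 array was well above background.

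Further stretches fell in LcPOU5F3 while their median LcPOU5F1 difference from mOct4 was between -0.30 and -0.04. At chr17:38132217-38157667, forward strand, 7 of 8 kept probes fell. The falls were 1.48 to 2.85 for the 5 detected on an LcPOU5F3 array and at least 1.75-fold and 2.31-fold for the others. At chr1:183781704-183834531, reverse strand, all 6 fell by 1.66 to 3.13. At chr7:4827340-4863315, forward strand, 5 of 6 fell by 1.44 to 1.89. At chr18:61781410-61788685, reverse strand, 5 of 6 fell, 3 of them by 1.39 to 2.04 and 2 undetected in LcPOU5F3 by at least 1.85-fold and 2.41-fold. At chr4:3745750-3757483, reverse strand, 5 of 8 fell, 4 of them by 1.51 to 2.27 and 1, undetected in LcPOU5F3, at least 3.62-fold. The chr17:39960567-39992817 stretch, forward strand, held bright called probes, with mOct4 levels of 5.31 to 7.96. There 7 of 10 fell by only 0.78 to 1.20, for example from 7.02 and 7.04 to 5.80 and 5.85 (2.30-fold, adjusted p = 0.017), with LcPOU5F1 at 6.72 and 6.79.

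In 4 of the 39 lower stretches the median LcPOU5F1 difference from mOct4 was also below -1, and 2 of these had at least 5 calls. All 6 kept probes of chr7:67111261-67120697, reverse strand, fell in LcPOU5F3, by 1.47 to 2.05, and were 0.46 to 1.47 lower in LcPOU5F1, though none of the latter passed the test. One had levels of 2.08 and 2.08 in mOct4, 0.91 and 0.30 in LcPOU5F1, and 0.36 and 0.31 in LcPOU5F3 (-1.74 ± 0.24, adjusted p = 0.019). No probe there was called between the coelacanth groups. At chr8:89996710-90061169, forward strand, 5 of 7 fell. For the 4 detected on an LcPOU5F3 array the differences were -3.56 to -3.75, and the fifth fell at least 16.7-fold. All 5 were 0.90 to 1.27 lower in LcPOU5F1 without passing the test. The fifth probe was described above.

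Stretches with several higher probes were fewer. At chr10:83181374-83249918, forward strand, 8 of 9 kept probes rose, by 1.63 to 2.06, while 0 of 7 kept probes on the opposite strand were called. One probe of the inner interval chr10:83185606-83225506 had levels of 0.77 and 0.50 in mOct4, 0.72 and 0.82 in LcPOU5F1, and 2.24 and 2.99 in LcPOU5F3, a 3.94-fold rise (1.98 ± 0.29, adjusted p = 0.021). All 8 were also called between LcPOU5F1 and LcPOU5F3, and LcPOU5F1 lay within 0.28 of mOct4 at each. At chr1:52507332-52514490, reverse strand, all 3 kept probes rose, by 2.20 to 2.39. At chr4:136856064-136877219, reverse strand, 4 of 7 rose by only 0.72 to 0.83, the brightest from 5.44 and 5.29 to 6.08 and 6.13 (adjusted p = 0.045).

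A single interval moved in opposite directions within 1 strand. At chr14:22267795-22319045, forward strand, 5 of 7 kept probes rose by 1.75 to 1.95 and 1 fell by 1.70. The brightest riser had levels of 3.66 and 3.65 in mOct4, 3.93 and 3.71 in LcPOU5F1, and 5.05 and 5.83 in LcPOU5F3 (3.45-fold, adjusted p = 0.025). The falling probe went from 0.98 and 0.68 to -0.33 and -1.41 (adjusted p = 0.049), with LcPOU5F1 at 1.26 and 1.07. It is the 1 name with calls in both directions.

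At chr8:34627209-34680312, forward strand, LcPOU5F1 also lay above mOct4. Here 4 of 5 kept probes rose in LcPOU5F3, 3 of them by 1.07 to 1.68 and 1, undetected in mOct4, at least 3.64-fold. The LcPOU5F1 mean lay above that of mOct4 at those 4, without passing the test in the fit of all 6 arrays. One probe had levels of -3.13 and -2.88 in mOct4, -1.43 and -1.81 in LcPOU5F1, and -1.64 and -1.61 in LcPOU5F3 (2.60-fold for LcPOU5F3, adjusted p = 0.022). None differed between the coelacanth groups by the test.

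Calls on both strands of 1 interval were found in 16 intervals, 14 with the same sign and 2 with opposite signs. The interval with the smallest p among them was chr8:91569369-91594119. Its leading reverse-strand probe fell at least 2.75-fold, from -1.35 and -1.67 to -4.46 and -5.09 (adjusted p = 0.0094), and its forward-strand probe fell 3.05-fold as measured, from -1.46 on both mOct4 arrays to -2.76 and -3.37 (-1.61 ± 0.24, adjusted p = 0.022), with 1 LcPOU5F3 array below detection. LcPOU5F1 levels on both strands, -1.20 to -1.15 forward and -1.15 to -1.36 reverse, were close to mOct4. At chr2:181650800-181669350 a forward probe fell by 2.35 ± 0.44 (adjusted p = 0.033) and a reverse probe at least 1.46-fold (adjusted p = 0.011). At chr2:71576218-71603818 the bounds were at least 1.29-fold forward and at least 1.19-fold reverse (adjusted p = 0.013 and 0.038), and the reverse probe of chr17:26911397-26917047 fell at least 1.37-fold (adjusted p = 0.012). At chr18:3003075-3016150, 3 of 4 kept reverse-strand probes fell by 1.92 to 2.60 beside both forward probes. The intervals with opposite signs were chr11:97457180-97487074 and chr5:92548501-92566401. At the former, 3 forward probes fell by 0.92 to 1.71 and a reverse probe rose by 1.54. At the latter, a forward probe rose by 2.29 and a reverse probe, undetected in LcPOU5F3, fell at least 1.01-fold. The reverse probes given for chr2:181650800-181669350, chr2:71576218-71603818 and chr5:92548501-92566401 passed the filter through mOct4 alone. So did both forward probes of chr18:3003075-3016150, and none of these could readily show a rise.

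One chromosomal neighbourhood gathered more loci with calls than others. Counting loci less than 1 Mb apart, the only group with at least 4 called loci spanned chr4:145000941-147183905, where 7 of 14 kept loci held 10 lower and 0 higher calls. The neighbourhood was picked by its calls, so its values are a description. Over all kept interval probes, 5.97% were called lower and 1.22% higher. Of the 45 kept probes in this neighbourhood, 40 (88.9%) had a lower mean in LcPOU5F3 than in mOct4, beside 62.8% of all kept interval probes. The other 5 were all the probes of 1 name, chr4:146507925-146532650, reverse strand. They were 1.68 to 2.06 higher in LcPOU5F3 without passing the test. For 26 of the 45, neither LcPOU5F3 array was well above background. Several of the 45, some called ones among them, passed the filter through mOct4 alone and could hardly show a rise. The same holds for 32.5% of all kept interval probes, and its part in the 88.9% was not tested.

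The comparison of LcPOU5F1 with mOct4 asks the same of the other paralog. It called 0 of 6412 interval probes with limma, and 0% of all kept probes. The fit pools the spread of the 3 groups, so the SE here also takes in the wider spread between the LcPOU5F3 clones. At an unadjusted p under 0.05 there were 661 interval probes (10.3%), against 12.7% of all kept probes, and the smallest adjusted p was 0.16. A fit of only the 4 arrays of these groups called 129, with 79 higher and 50 lower in LcPOU5F1 (38.8% lower), where it called 2.42% of all kept probes, 66.8% of them lower. Leaving out either LcPOU5F3 clone gave the same 129. Centring arrays on their median called 103, of which 97 (94.2%) were lower, and 2.54% of all kept probes, with 95.9% lower. Across the 6412 kept probes, which share arrays and design, the Pearson correlation between arrays was 0.979 within mOct4, 0.962 within LcPOU5F1, 0.931 within LcPOU5F3, 0.936 to 0.944 between LcPOU5F1 and mOct4, and 0.886 to 0.904 between LcPOU5F3 and mOct4.

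The 5 interval probes with the smallest p in that comparison were all lower in LcPOU5F1, and none was well above background on either LcPOU5F1 array. At chrX:6790023-6896433, reverse strand, levels were -1.88 and -1.87 in mOct4, -4.34 and -4.56 in LcPOU5F1, and -2.16 and -1.52 in LcPOU5F3. That is at least 1.60-fold less in LcPOU5F1 than in mOct4 (adjusted p = 0.16), while LcPOU5F3 and mOct4 overlapped. At chr6:23105525-23118900, reverse strand, levels were -1.32 and -0.99 in mOct4, -4.80 and -4.48 in LcPOU5F1, and -4.42 and -5.44 in LcPOU5F3. LcPOU5F1 was at least 2.64-fold lower (adjusted p = 0.16) and LcPOU5F3 at least 3.53-fold lower (adjusted p = 0.011). Single probes of chr3:37543523-37613073 and chr1:138546641-138558591, forward strand, and chr13:70762342-70776512, reverse strand, had mOct4 levels of -2.70 to -2.84 and lay below detection in both coelacanth groups, with adjusted p of 0.16 to 0.17 for LcPOU5F1. All but the chrX:6790023-6896433 probe passed the filter through mOct4 alone, so they could hardly show a rise in either coelacanth group.

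The coelacanth paralogs were then compared with each other. LcPOU5F1 against LcPOU5F3 called 394 of 6412 interval probes (6.14%), where 9.81% of all kept probes were called. They split into 330 higher (5.15%) and 64 lower (0.998%) in LcPOU5F1, beside 4.68% and 5.14% of all kept probes. For 125 of the higher and 28 of the lower, the dimmer group was not well above background on any array. The count was 7 without LcPOU5F1 clone 4, 0 without clone 5, 2512 without LcPOU5F3 clone 1, 339 without LcPOU5F3 clone 2, and 3 without either mOct4 clone. The same fits called between 0.0582% and 34.8% of all kept probes. Centring on the median gave 308 calls and raised the share that were lower in LcPOU5F1 from 16.2% to 31.2%, and that of all called probes from 52.4% to 73.0%. This comparison shares the LcPOU5F3 arrays with the first, so both sets of values are given side by side. In LcPOU5F3, 218 probes in 137 names were below both other groups by the test and 41 probes in 27 names were above both. These are 3.40% and 0.639% of the kept interval probes, beside 2.96% and 3.84% of all kept probes.

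Most of the largest differences between the paralogs were at intervals already described. Largest was chr5:105072936-105074001, at least 7.29-fold higher in LcPOU5F1 (adjusted p = 0.012), followed by chr4:146017200-146029700 (at least 6.56-fold, adjusted p = 0.020), chr13:98270713-98272269 (at least 6.94-fold, adjusted p = 0.022) and chr13:98267049-98267604 (16.5-fold, 4.04 ± 0.73, adjusted p = 0.035). The intervals chr10:69844350-69844784 and chr15:102100964-102104552 were at least 4.21-fold and 3.37-fold higher. Not described above were chr7:50509139-50526856, forward strand, at -1.15 and -1.26 in LcPOU5F1 and -4.36 and -6.01 in LcPOU5F3 (at least 3.40-fold, adjusted p = 0.022), and chr10:62347876-62374346, reverse strand, at -1.04 and -1.58 against -4.43 and -5.93 (at least 3.16-fold, adjusted p = 0.020). In both, mOct4 lay near LcPOU5F1, at -1.08 and -1.75 and at -1.05 and -1.19. The ranking follows the size of the measured difference, so its order differs from that of the bounds.

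In the other direction, the single probe of chr6:34548561-34612216 was at least 13.7-fold higher in LcPOU5F3 than in LcPOU5F1 (adjusted p = 0.024). At chr4:146507925-146532650, reverse strand, all 5 probes were called lower in LcPOU5F1, by 2.66 to 3.43 for the 3 detected on an LcPOU5F1 array and at least 5.74-fold and 7.04-fold for the others. The leading one had levels of -1.71 and -1.80 in mOct4, -2.75 and -4.35 in LcPOU5F1, and -0.32 and 0.93 in LcPOU5F3 (at least 7.04-fold, adjusted p = 0.030), so mOct4 stood between the paralogs. At chrX:6790023-6896433, 2 of 3 probes were called lower in LcPOU5F1, the leading one at least 1.64-fold (adjusted p = 0.012), and there mOct4 was close to LcPOU5F3.

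The other large differences of that sign had mOct4 near LcPOU5F1. A second probe of chrX:50407969-50410370 was at least 2.50-fold lower in LcPOU5F1 (adjusted p = 0.030), and chrX:90997595-91009570 at least 5.35-fold (adjusted p = 0.020). The chr3:95502970-95503399 probe was at least 4.66-fold lower (adjusted p = 0.025). At chr1:52706748-52712402, reverse strand, levels were -4.19 and -2.79 in LcPOU5F1 and -1.12 and -0.35 in LcPOU5F3 (at least 3.53-fold, adjusted p = 0.048). At chr7:119735208-119822808, reverse strand, they were -4.87 and -3.73 against -1.92 and -1.58 (at least 1.75-fold, adjusted p = 0.026). All of these probes passed the filter through LcPOU5F3 alone, so they could hardly show the other sign.

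Both strands of 12 intervals were called between the paralogs, 10 with the same sign. At chr8:91569369-91594119 LcPOU5F1 was at least 3.30-fold higher on the reverse strand and 3.72-fold higher on the forward strand (adjusted p = 0.0076 and 0.018). At chr13:31736054-31781679 it was higher by 1.19 ± 0.21 forward and 1.94 ± 0.20 reverse, and at chr1:183783306-183834531 at least 2.00-fold forward and 8.21-fold as measured in reverse, with 1 LcPOU5F3 array below detection. For chr1:162965309-162970704 both forward probes and 1 of 7 kept reverse probes were higher, the latter at least 1.37-fold.

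By the same distance rule this comparison gave another neighbourhood of called loci. It spanned chr13:74568375-74754728, where 4 loci held 7 calls, all higher in LcPOU5F1, among 22 kept probes. Over all kept interval probes, 5.15% were called higher and 0.998% lower in LcPOU5F1. The 5 called probes detected on an LcPOU5F3 array were 0.79 to 1.5 higher, and the other called ones at least 1.44-fold and 3.01-fold. All 7 called probes were on the reverse strand, and 2 probes there were lower in LcPOU5F3 than in mOct4 by the test. The chromosome 4 neighbourhood held 17 calls by this comparison, 12 higher and 5 lower in LcPOU5F1, and the 5 were those of chr4:146507925-146532650.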

How the data were processed

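Total RNA of 6 clones was hybridised to 1-colour Agilent mouse arrays. The authors' Feature Extraction software (Agilent, 11.0.1.1, protocol GE1_1100_Jul11, per the file headers) gave each spot a linear intensity with background subtracted, and the deposited flags mark spots well above background, saturated or outlying. Names give mm9 intervals. The deposited value table holds the same intensity values, rounded.

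Here the processed signal was log2 transformed and the 75th percentile of each array subtracted. Control spots and 5 probes with an incomplete value were left out. Interval probes and all other kept probes were fitted together with limma 3.58.1 in R 4.3.3 (3 group means over 6 arrays, 3 residual degrees of freedom), and p-values were adjusted by Benjamini-Hochberg over 30944 probes and called under 0.05. P-values reflect the spread between separately picked clones, pooled over the 3 groups, and precision is limited by how few arrays there are. Where no array of the dimmer group detected a probe, the fold is a bound ("at least"): each dim array enters at its detection limit, the lowest level flagged well above background, or at the probe's own level if that is higher. Probes named were, per comparison, the 8 largest and 8 smallest differences called with clones not overlapping (1 per name), the 5 smallest p where under 5 were called, up to 4 intervals called on both strands, and 5 context genes; stretches and neighbourhoods were picked after their values were seen. Members, lists and tests were chosen with earlier results of these data known. Gene symbols came from a RefSeq table, used for names only. The steps were tested on simulated data.

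Alternatives were other normalizations, background correction, filters, thresholds, variance models and probe summaries, the deposited table, the slide or clone number as a block, a common floor and each array left out. Slide 2 held only mOct4 clone 2. Clones of different constructs are not paired by their numbers, and deviations of same-numbered clones correlated at -0.132.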

Additional observations from a re-analysis of the deposited data

How the results depend on the processing

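For LcPOU5F3 against mOct4 (461 interval probes called), fits without 1 clone called between 0 and 1151, with 0 without either mOct4 clone. Other settings that moved the count by over 1.5 times were no filter (23), probes detected on all 6 arrays (296), only the 4 arrays compared (163), probes averaged by name (195), adjusted p under 0.01 (11) or 0.1 (885), the slide block (0), which equals leaving out mOct4 clone 2, and a common floor on dim signals (302), added after the data were seen. With the clone number as a replicate block 0 were called, 927 at an unadjusted p under 0.05; the crossed pairing, also added later, called 114. For LcPOU5F1 against mOct4 (0), quantile normalization called 12, median centring 103, the 4 arrays alone 129 and the common floor 5, and fits without 1 clone between 0 and 129. For LcPOU5F1 against LcPOU5F3 (394), no filter called 14, the 4 arrays alone 3, averaging by name 161, adjusted p under 0.01 9 and under 0.1 827, the slide block 3, and fits without 1 clone between 0 and 2512. Quantile normalization, normexp, the intensity trend, the deposited table and the percentile over detected probes left both larger counts within 1.5 times. Beside these counts stand the shares called of all probes tested. For LcPOU5F3 against mOct4 they were 0.611% with no filter, 18.1% with detection on all 6 arrays and 4.71% for the 4 arrays alone. Averaging by name gave 13.5%, the thresholds 0.672% and 22.3%, the common floor 13.5% and the crossed pairing 3.5%. LcPOU5F1 against mOct4 had 0.42% with quantile normalization, 2.54% with median centring, 2.42% for the 4 arrays alone and 0.126% with the common floor. LcPOU5F1 against LcPOU5F3 had 0.498% with no filter, 0.236% for the 4 arrays alone and 10.7% averaged by name. Its thresholds gave 0.63% and 19.6%. Where no cause is given above, it was not tested. Median centring moved the median difference of all kept probes between LcPOU5F1 and mOct4 from 0.111 to -0.273, and that between LcPOU5F1 and LcPOU5F3 from 0.272 to -0.0987. None of the 53 named values changed sign in 1063 recalculations. Most were named for large differences with clones not overlapping, and several settings reuse the same difference. A change of sign was therefore hardly possible, and its absence is no support for the calls.

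By the flag for a positive and significant signal, detected interval probes numbered 11025 and 10551 in LcPOU5F1 clones 4 and 5, 10257 and 11669 in LcPOU5F3 clones 1 and 2, and 12657 and 12704 in mOct4 clones 1 and 2. On at least 1 LcPOU5F3 array 6049 were well above background, against 3685 on both. Most interval probes lie near the background, so many falls are bounds only.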
